A study of Mus musculus with 4 samples.

Results

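The lists of m6A peaks made from control and Wtap knockout mouse hearts shared 1330 regions whose coordinates were the same to the base. A region was taken when its chromosome, start, end, strand, exonic block sizes, block starts and gene identifier were equal in both lists. These regions were 1330 of 20766 control peaks (6.40%, exact 95% interval 6.08 to 6.75) and 1330 of 21179 knockout peaks (6.28%, 5.96 to 6.61). They lay in 1248 of the 12182 genes that carried a peak in either list (10.2%) and together covered 472 kb of exonic sequence.

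The series addressed how WTAP affects m6A on mRNA in the heart. Hearts came from 4-day-old Wtapflox/flox mice, the control, and from Wtap-CKO mice of the same age, the knockout; the labels do not name the Cre driver. RNA of 7 control and 8 knockout mice was pooled by genotype, with 300 µg listed for each sample. It was cut to fragments of about 100 nt, incubated for 2 h with an anti-m6A antibody and sequenced with 150-base paired reads. Each genotype therefore had 1 immunoprecipitated (IP) library and 1 input library without replicates, no difference between genotypes could be tested, and all intervals below cover counting error only.

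N6-methyladenosine (m6A) is a methylated base placed on RNA in the nucleus by a methyltransferase complex whose core pair is METTL3 and METTL14. WTAP is the subunit that holds this pair in nuclear speckles, where it meets its RNA substrates. Marked RNA is bound by readers, among them the YTH domain proteins, that alter its splicing, translation and decay, and in most mRNAs the mark is concentrated near the stop codon and in long internal exons.

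Peaks are windows over exons in which IP reads exceed input reads, and the authors' fold enrichment is the peak's own IP over input ratio, computed separately in each list. The folds are used here to describe regions, since the depth of the libraries was unknown and the antibody signal was not set to a common scale. Coordinates and blocks made the choice of regions, and fold, p and q came from the same reads, so every value below is a description of these 4 libraries. Positions refer to GRCm39. The placement of regions relative to start and stop codons was not analysed here.

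The closest view of a shared region was given by the microRNA genes, for which the RNA letters can be shown. Of 3 control and 4 knockout peaks assigned to miRNA genes, those of Mir675 and Mir8114 were the same in both lists; both genes were singled out after their values were seen. Mir675 is embedded in the first exon of H19, an imprinted long noncoding RNA, and gives a pair of mature miRNAs. The Mir675 region was chr7:142130801-142130884 on the minus strand, and its 84 bases equalled the length of the hairpin of that symbol in RefSeq (GRCm38.p6). Its control fold was 2.81 and its knockout fold 3.07, with log10 q of -2.05 and -2.63. It lay inside a larger identical region of H19 (chr7:142130390-142131880, 1410 exonic bases), so the same reads could count for both. Over that H19 region the fold was 6.91 (control) and 12.1 (knockout). In the hairpin the capitals mark GGAC, a core form of the m6A motif, and in the mature miRNAs they mark the seed, bases 2 to 8.
Mir675 hairpin: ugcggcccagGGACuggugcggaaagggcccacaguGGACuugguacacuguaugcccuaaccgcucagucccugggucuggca
miR-675-5p: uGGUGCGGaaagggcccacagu
miR-675-3p: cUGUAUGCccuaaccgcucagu
miR-8114: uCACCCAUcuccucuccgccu

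The Mir675 hairpin held GGAC at 2 places, and its reverse complement GUCC at 1 place. Of 23 RefSeq hairpins of the same length, 7 held GGAC (30.4%) and 4 held GUCC. The 3 mature miRNAs have different seeds. The Mir8114 region (chr1:153775699-153775782, plus strand) also had 84 bases, against 111 in its RefSeq hairpin, which held neither motif. Its control fold was 4.09 and its knockout fold 3.05, with log10 q of -4.59 and -12.5, and it was overlapped by a peak assigned to the opposite strand. Sequences of the other regions are not shown, since they need the genome of the files' build.

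Regions with identical coordinates had smaller q than the other peaks of both lists, while the order by fold differed between the lists. Their median log10 q was -19.9 (control) and -25.2 (knockout), against -12.8 and -11.3 for peaks that overlapped a peak of the other list without being identical. In peaks of a single list it was -3.73 and -3.20. The median fold of the identical regions was 7.03 (95% interval 6.67 to 7.59) in the control and 7.97 (7.50 to 8.44) in the knockout, beside 7.64 and 7.03 for the other overlapping peaks and 5.61 and 6.81 for peaks of a single list. Single folds ran from 1.27 to 121 in the control and from 1.24 to 184 in the knockout. The weakest identical regions reached log10 q of -1.36 and -1.55, just within the authors' threshold of 0.05, and 851 of the 1330 (64.0%) had q at or under 1e-10 in both lists.

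The share of peaks with an identical partner rose with the strength of the peak in both lists. Among control peaks with q from 0.05 to 1e-03, 2.43% had an identical partner, and among those at or under 1e-100, 11.8% did. In the knockout list the corresponding shares were 1.80% and 19.7%. The share with any overlap rose too: 45.9% of the weakest and 96.6% of the strongest control peaks overlapped a knockout peak. Among overlapping peaks alone the identical share went from 5.29% to 12.2% in the control, and from 4.54% to 19.8% in the knockout.

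Regions over several exons were frequent among the identical ones. Of the 1330 regions, 791 were a single exonic block, 398 had 2 blocks, 93 had 3, 33 had 4, and 15 had 5 or more. Regions of 2 or more blocks made up 40.5% (37.9 to 43.2) of the identical set, 22.8% of the other overlapping control peaks and 11.5% of control peaks without overlap. In the knockout list the other overlapping peaks had 22.4% and the peaks without overlap 21.3%. Seen from the blocks, 4.83% of control peaks with 1 block, 11.6% with 2, 14.0% with 3 and 15.9% with 4 or more were identical in the knockout. Within each of 4 ranges of q, in both lists, the share was higher for peaks of several blocks. In the control range from 1e-10 to 1e-30, for example, it was 15.1% (13.1 to 17.3) against 5.65% (4.94 to 6.42).

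**Figure D1:**
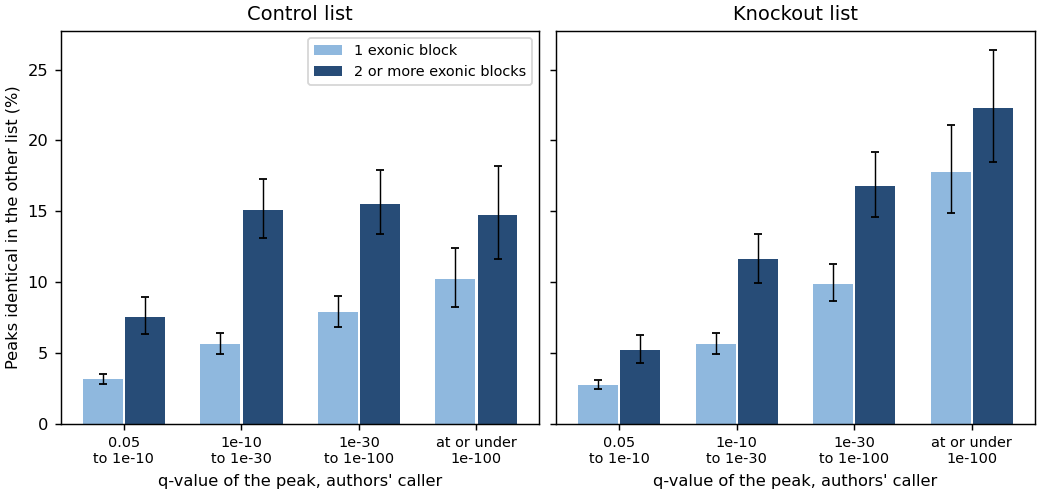
Percent of peaks with identical coordinates in the other list (vertical axis) by the authors' q-value, for peaks of 1 exonic block (light) and of 2 or more (dark), in the control list (left) and the knockout list (right); bars on the columns are exact 95% intervals of counting error. The dark column is the higher of each pair, and the highest share is 22.3%, for knockout peaks of several blocks with q at or under 1e-100.

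The median exonic width of an identical region was 270 bases, with quartiles of 205 and 418. Other overlapping peaks were somewhat wider, with medians of 330 (control) and 300 (knockout), and peaks of a single list were narrower, with 180 and 151. The identical share was highest at 200 to 299 bases, where it was 8.80% of control and 7.94% of knockout peaks. It was 1.38% and 1.26% for peaks under 100 bases, and 5.01% and 5.93% for those of 1000 bases or more.

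The edges of all overlapping peaks show what lies just outside the rule. Of 13659 pairs in which each peak overlapped exactly 1 peak of the other list (one-to-one pairs), 1300 were identical (9.52%), and the other 30 identical regions belonged to larger groups of overlapping peaks. A shared 5′ edge was found in 30.4% of the pairs and a shared 3′ edge in 27.5%. In no pair were both outer edges shared with different blocks between them. Edges moved on a grid: among 1-block pairs, 96.7% of unequal 5′ edges and 96.5% of unequal 3′ edges differed by a multiple of 30 bases, give or take 1, and about 40% by a single such step (2804 and 2894 pairs). Over pairs of any block number, 2303 shared 1 edge and were 29 to 31 bases apart at the other.

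These near misses resembled the identical regions in width and fold, with weaker q. Their median control width was 271 bases and their median fold was 6.82 (control) and 7.03 (knockout). Median log10 q was -14.4 (control) and -16.1 (knockout). An example among the near misses of smallest p, chosen after its values were seen, was Myl3, a myosin light chain of slow and ventricular muscle, with folds of 2.60 and 2.57 and a 5′ edge 29 bases apart.

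**Figure D2:**
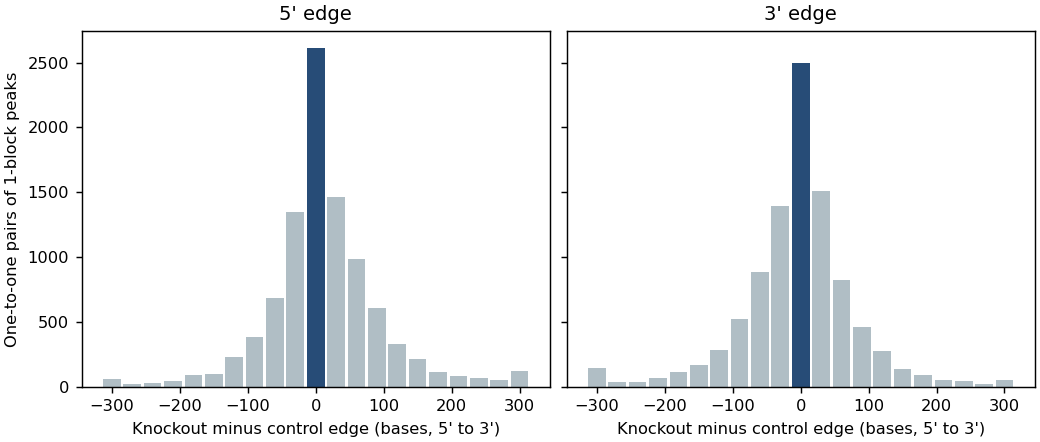
Number of one-to-one pairs of 1-block peaks (vertical axis) by the offset of the knockout edge from the control edge in bases along the transcript (horizontal axis, bins of 30; the outermost bins hold all larger offsets), for the 5′ edge (left) and the 3′ edge (right). The dark column at 0 holds 2611 pairs with the same 5′ edge and 2494 with the same 3′ edge, and 769 pairs shared both.

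The fold at identical regions was more often higher in the knockout library than in the control library. It was higher in 784 regions (58.9%), lower in 534 (40.2%) and equal in 12. The median of the knockout over control fold, the fold quotient, was 0.16 on the log2 scale (0.12 to 0.21), with quartiles of -0.30 and 0.63. A quotient of 2 or more was found at 181 regions, or 13.6%, where 15.8% of all one-to-one pairs had one. A knockout fold lower by 2 times or more was found at 93 regions, or 6.99%, beside 15.6% of all one-to-one pairs. Both folds were within 1.25 times of each other at 492 identical regions (37%) and at 26.5% of the other one-to-one pairs, and Spearman's rank correlation between the folds was 0.71 and 0.56, as a description over regions that share the same 4 libraries. The other one-to-one pairs had a median log2 quotient of 0.00 and quartiles of -0.68 and 0.65. Among them, the 2303 near misses had a median of 0.127 (0.0965 to 0.162), an interval that overlaps that of the identical regions. A positive median was thus not particular to identical coordinates.

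**Figure D3:**
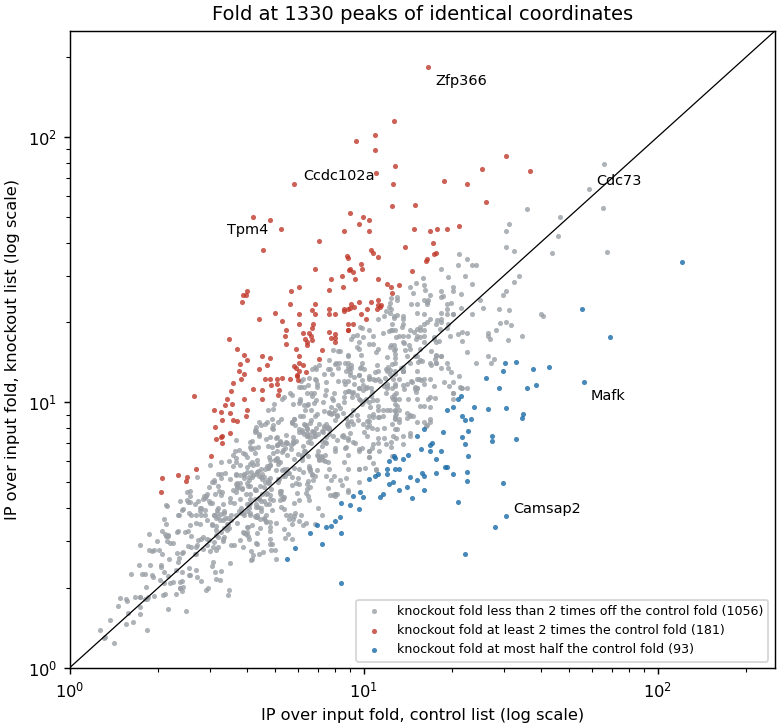
Authors' fold (IP over input) of each of the 1330 identical regions in the control list (horizontal) and the knockout list (vertical), both on log axes, with the line of equal folds. Red points, 181 in all, have a knockout fold at least 2 times the control fold, and blue points, 93 in all, a knockout fold lower by 2 times or more; named points are examples given in the text.

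The fold quotient followed the difference in width. One-to-one pairs whose knockout peak was narrower by 91 bases or more had a median log2 quotient of -0.81, and those narrower by 1 to 90 bases -0.30. It was 0.41 where the knockout peak was wider by 1 to 90 bases and 0.64 where it was wider by 91 or more. Identical one-to-one regions, with no such difference, had 0.15 (0.12 to 0.21), and 617 pairs of the same width at another position had -0.02 (-0.09 to 0.07). The part of width in the quotient was not tested. By geometric mean fold, the median log2 quotient of identical regions was 0.12 under 4, 0.16 from 4 to 8, 0.10 from 8 to 16 and 0.43 at 16 or more; other one-to-one pairs at 16 or more had 0.28.

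**Figure D4:**
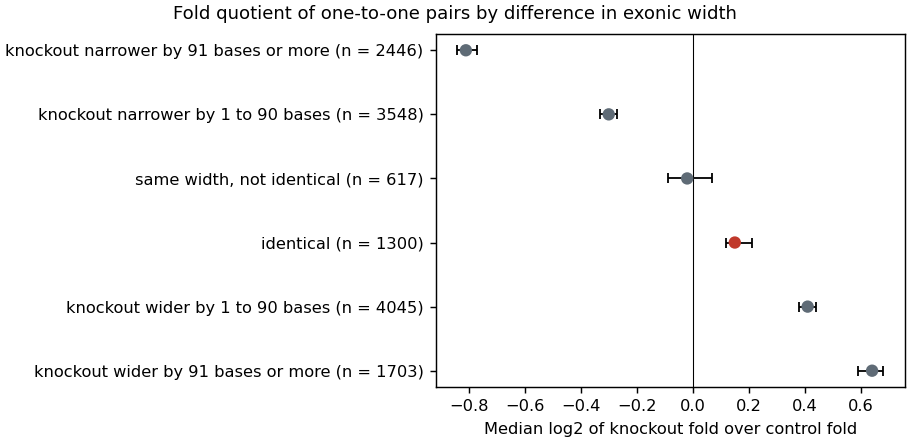
Median log2 of the knockout over the control fold (horizontal axis) of one-to-one pairs grouped by the difference in exonic width, with order-statistic 95% intervals of counting error; the identical regions are in red. The medians go from -0.81 at the top to 0.64 at the bottom, with the identical regions at 0.15.

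None of the 29 control peaks in genes of the m6A writer complex was identical in the knockout, with an interval (0 to 11.9%) that holds the 6.40% of all control peaks. Wtap, the targeted gene, carried 3 control and 4 knockout peaks, and each of the 3 control peaks overlapped a knockout peak at other coordinates. Virma, which guides methylation toward the end of the transcript, had 7 and 5 peaks, and Zc3h13, which keeps the complex in the nucleus, had 5 and 5, none identical. The erasers Fto and Alkbh5 had 3 control peaks and 1 knockout peak between them, none identical.

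Among 25 control peaks of reader genes, 2 were identical (8.0%, 0.984 to 26), close to that share, and both had the lower fold in the knockout. Their median log2 quotient was -0.99, where the other 19 one-to-one pairs of reader genes had 0.0, so these 2 did not stand for the list. At Ythdf3, a cytoplasmic YTH reader of translation and decay, the region chr3:16237406-16241186 spanned 3 blocks, and its fold was 16.8 (control) and 10.5 (knockout). The log10 q of this region was -28.2 (control) and -56.0 (knockout). At Fmr1, which encodes the RNA-binding protein FMRP, the region chrX:67722207-67723291 had 55.3 and 22.5. Its log10 q was nearly equal, -23.3 and -25.0.

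All 25 sarcomere genes of the list carried a peak, and they held 13 identical regions, or 11.5% (6.27 to 18.9) of their 113 control peaks. This interval held the 6.40% of all control peaks. The regions lay in 10 of these genes, 9 had the higher fold in the knockout and 4 the lower, and none differed by 2 times or more. Tnnt2, cardiac troponin T of the thin filament, held 3 of them. Its widest region, chr1:135773246-135777306, ran over 8 exonic blocks, the most of any identical region, and had folds of 5.46 (control) and 7.52 (knockout). The other 2 had 3.51 and 4.37, and 1.88 and 2.45. All 3 thus had the higher fold in the knockout library, by less than 1.5 times. Tnnc1, troponin C, had 2 regions, and they were its whole set of peaks in both lists, with 2.19 and 2.09, and 4.93 and 8.24.

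Tcap, the titin cap at the Z-disc, had folds of 7.31 and 8.01 in control and knockout. The remaining sarcomere members were Tnni3, Myl2, Myl7, Nebl, Csrp3, Tpm1 and Fhod3, named to complete the list after their values were seen. Csrp3, a Z-disc LIM protein, went from 5.77 to 9.85, and Nebl, a nebulin relative, from 4.05 to 3.13. Of the 75 control sarcomere peaks with q at or under 1e-10, 12 (16%) were identical, where 9.18% of all control peaks of that strength were. Of the list's control peaks, 38.9% had 2 or more blocks. Among all control peaks of 2 or more blocks at that strength, 14.7% to 15.5% were identical, by range of q. The part of block number in the 16% was not tested. Of the 113 control sarcomere peaks, 37 overlapped no knockout peak.

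Genes of the cell junction and of calcium handling gave further regions. Des encodes desmin, the intermediate filament that links myofibrils to the discs, and both of its peaks were identical. The stronger one, chr1:75344002-75344419, had folds of 4.50 and 5.36 and log10 p of -1370 and -3130. Lmo7 gave 2 regions and Dsp, desmoplakin, gave 1. In all, 5 of 38 control peaks in the junction list were identical (13.2%, 4.41 to 28.1). Of 36 calcium handling peaks 3 were identical (8.33%, 1.75 to 22.5). The intervals of both lists held the 6.40% of all control peaks. Atp2a2, the SERCA2 pump that returns calcium to the sarcoplasmic reticulum, had folds of 9.25 and 12.5 at chr5:122639010-122640288, with log10 p of -4740 and -3580. Casq2, the calcium store protein of that reticulum, had 3.39 and 5.42, and Jph2, which ties it to the surface membrane, had 12.9 and 10.8.

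In genes of ion channels, fatty acid oxidation and cardiac transcription factors, the intervals of the identical share all held the 6.40% of all control peaks. Ion channel genes had 2 identical regions among 52 control peaks (3.85%, 0.469 to 13.2), among them Kcnh2, a repolarising potassium channel, with folds of 3.36 and 3.89. Fatty acid oxidation genes had 1 of 30 (3.33%, 0.0844 to 17.2), in Hadha, with 1.58 and 1.61. None of 54 control peaks in genes of cardiac transcription factors was identical (0 to 6.60%). Gata4, Nkx2-5, Tbx5, Mef2a and Mef2c were among the genes with peaks in both lists and no identical one, as were Myh6, Myh7 and Nppa, while Nppb had 1 peak in the knockout list alone. The stress and fetal list had 2 of 21 (9.52%, 1.17 to 30.4), an interval that held 6.40% too. These were Ddit3 and Rcan1, which had the lower fold in the knockout, 13.6 against 6.96 and 22.5 against 18.3.

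A list of 28 nuclear genes of oxidative phosphorylation, which is not the whole class, had few peaks. Of its 19 control peaks, 5 were identical (26.3%, 9.15 to 51.2). They belonged to Ndufb10, Cox8b, Atp5a1 and Sdha, which was added once its values were known. Ndufb10, a subunit of complex I, gave 2 regions with folds of 1.77 and 2.25, and 2.32 and 3.24. Cox8b, a muscle subunit of complex IV, had 3.19 (control) and 4.84 (knockout). Apart from Atp5a1, of the ATP synthase, with 15.8 and 14.3, these folds were low and the knockout value was the higher. The 5 regions did not stand for the class. Among its genes outside the list, Cox6a1 had an identical region with 27.3 and 7.45. Atp5g3, named after its values were seen, had one with 4.18 and 5.98.

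Splicing factor genes had 9 identical regions among 68 control peaks (13.2%, 6.23 to 23.6), 7 with the higher fold in the knockout. The interval held the 6.40% of all control peaks. Srsf6, a serine and arginine rich factor, had 9.02 and 12.7. Rbm24, which controls muscle splicing, had 6.58 and 7.33 over 806 bases, and Hnrnpul1 had 5.28 and 6.49. Chromatin remodeller genes had 8 of 105 (7.62%), among them Arid1a, the large BAF subunit, with 21.4 and 25.5, Chd4, the NuRD helicase, with 6.94 and 11.4, and Baz1b with 3.30 and 4.61. Genes of histone lysine methyltransferases and demethylases carried as many as 120 control peaks and 1 identical region (0.833%, 0.0211 to 4.56), in Ehmt2, the H3K9 methyltransferase G9a, with 9.08 and 17.3. Zinc finger genes named Zfp stood similarly low with 22 of 808 (2.72%).

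Immediate early and SOCS genes, many with short-lived transcripts, gave 4 regions among 49 control peaks (8.16%). Myc had 43.7 (control) and 36.6 (knockout) at chr15:61861238-61862044. Ier2 had 18.3 and 25 over 1135 bases. Jund, an AP-1 subunit with a single exon, had 15.7 and 6.70 over 1429 bases. The fourth, Socs7, had 4.41 and 13.3; it was named after its values were seen. Pathway lists had shares whose intervals held that of all control peaks: 1 of 62 for Wnt (Fzd2, a receptor, 20.9 and 18.1), 2 of 55 for BMP and TGF-beta (both in Ski, a repressor of SMAD signalling, 1.57 and 1.78, and 10.3 and 8.09) and 5 of 101 for Notch and Hippo. Of the latter 5, 4 had the higher fold in the knockout and 1 the lower. The receptor Notch3 had 5.61 and 23.4, the scaffold Sav1 had 13.8 and 15.7, and the kinase Lats2 had 6.55 and 8.34. The lower one, Notch4, named after its values were seen, had 9.62 and 5.0.

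Markers of other heart cells were also among the regions. Fibroblast and matrix genes had 4 of 52 control peaks (7.69%), with folds of 30.6 and 26.2 at Pdgfra, the receptor that marks fibroblasts, 11.1 and 10.2 at Fbn1, fibrillin of the elastic fibres, and 4.12 and 4.53 at Col1a2, a chain of type I collagen. At these 3 regions both folds were within 1.25 times of each other. The fourth, Col6a1, named after its values were seen, had 4.44 and 3.64. The median log2 quotient of these 4 regions was -0.17. The other 35 one-to-one pairs of fibroblast and matrix genes had 0.69, so the identical regions did not stand for the list. Smooth muscle and pericyte genes had 4 of 26 (15.4%, 4.36 to 34.9), an interval that held the 6.40% of all control peaks. Of these, 2 were in Des, which heart muscle cells also express. Kcnj8, a potassium channel of pericytes, had 13.0 and 24.9, and the fourth, Notch3, had 5.61 and 23.4. The median log2 quotient of these 4 regions was 0.71. The other 11 one-to-one pairs of smooth muscle and pericyte genes had 0.12, so the 4 did not stand for that list either. Endothelial genes had 1 of 30, Nos3, the endothelial nitric oxide synthase, with 2.85 and 3.10. The other 21 one-to-one pairs of endothelial genes had a median log2 quotient of 0.59. Immune, epicardial and neural, and erythroid markers had 7, 3 and 6 control peaks and no identical region.

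**Figure D5:**
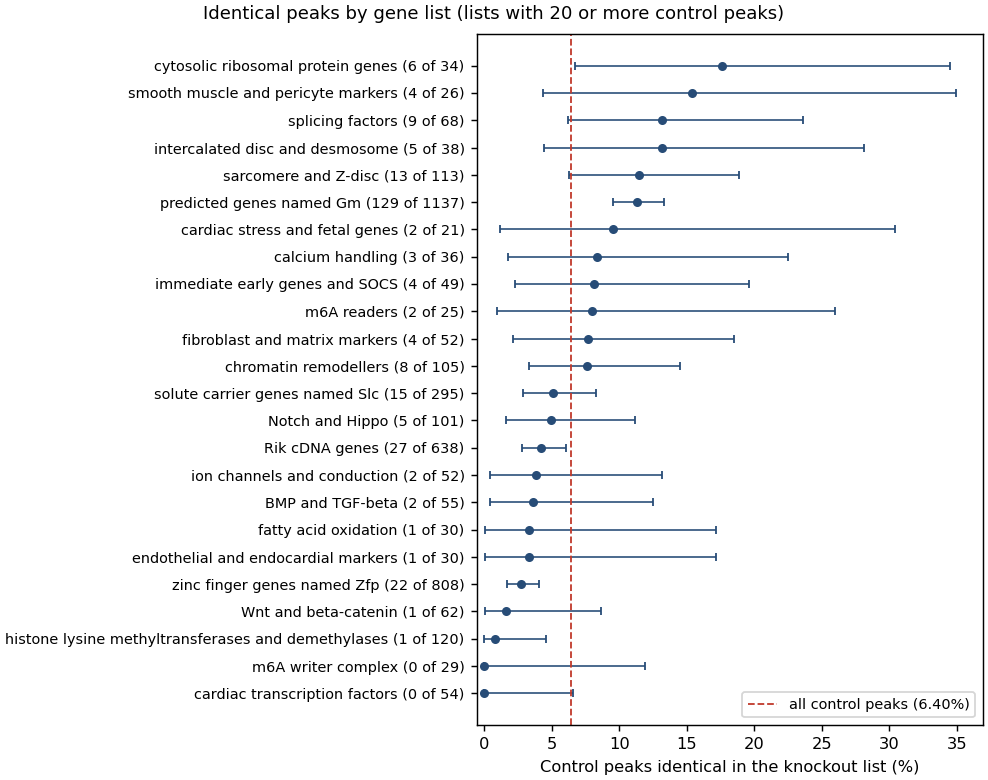
Percent of control peaks with identical coordinates in the knockout list (horizontal axis) for each gene list with 20 or more control peaks, with exact 95% intervals of counting error and, in parentheses, identical peaks of control peaks; the dashed line is the 6.40% of all control peaks. The interval of predicted genes named Gm lies above the line, and those of Rik, Zfp and histone methylation genes lie below it. That of ribosomal protein genes starts just above it, at 6.76%, with 2 overlapping regions of Rps2-ps10 both counted (of knockout peaks this list had 9.84%).

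Genes of the RefSeq class pseudogene, many of them intronless copies of mRNAs, had a higher identical share than protein-coding and long noncoding RNA genes. Of 327 control peaks in RefSeq pseudogenes 68 were identical (20.8%, 16.5 to 25.6), and of 441 knockout peaks the same 68 (15.4%). Protein-coding genes had 6.08% and 5.96%, and long noncoding RNA genes 4.83% and 5.33%. All but 1 of the 68 regions had a single block, and their median width was 231 bases. Their median fold was 4.60 (control) and 6.04 (knockout), with a median log2 quotient of 0.30 (0.13 to 0.47). The other one-to-one pairs of pseudogenes had 0.39.

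Genes and pseudogenes named for cytosolic ribosomal proteins had 6 identical regions among 34 control peaks (17.6%) and 61 knockout peaks (9.84%). The control interval, 6.76 to 34.5, started just above the 6.40% of all control peaks. Both overlapping regions of Rps2-ps10 are in this count, and they had the same log10 q, -50.2 (control) and -103 (knockout). Named examples were Rpl36-ps12, with a fold of 13.6 in both lists, Rps10-ps1, with 3.01 and 4.17, and Rps2-ps10, whose regions overlapped each other, with 3.28 and 4.47 at one and 3.23 and 4.65 at the other. Reads of these copies and of their parent genes can be alike, their assignment by the authors is not stated in the labels, and the values of pseudogenes are uncertain for that reason. Predicted genes named Gm held 129 of the 1330 regions, or 11.3% of their 1137 control peaks, and include many such copies.

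Most of the genes had 1 identical region: 1172 had 1, 70 had 2 and 6 had 3. The 6 were Tnnt2, Ube2q1, Wwc2, Mprip, App and Pfdn6. Mprip, a myosin phosphatase partner on actin, had nearly equal folds at 2 of its 3 regions, 10.2 and 10.3, and 3.82 and 3.83. Pfdn6, a prefoldin subunit, had the higher fold in the knockout at all 3, from 3.01 to 5.80, from 3.15 to 7.27 and from 2.99 to 4.79. Ube2q1, a ubiquitin-conjugating enzyme, was mixed, with 17.8 and 20.5, 14.6 and 4.38, and 4.01 and 5.71 along the transcript. App, the amyloid precursor, had 2.55 and 2.37, 6.99 and 6.56, and 4.23 and 6.72, and Wwc2 had 7.75 and 5.12, 3.33 and 3.61, and 14.4 and 27.2. Neighbouring regions of the same transcript thus did not have a common quotient in Ube2q1, App and Wwc2.

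In genes with several peaks, the identical one was often the first along the transcript. It was the most 5′ peak in 50.2% (46.8 to 53.5) of cases in the control, against 35.4% for other overlapping peaks and 30.9% for peaks without overlap. In the knockout list it was 46.9% against 30.5% and 48.6%, so there the peaks of that list alone lay 5′ about as often. Among 1-block peaks the 5′ share was 42.5% against 33.0% in the control and 39.4% against 26.6% in the knockout. The number of peaks per gene limits these comparisons, since fewer peaks make each more likely to be the first. In the control, 7.06% of peaks were identical in genes with 2 peaks and 4.13% in genes with 5 or more. The 5′ shares were not adjusted for this. The identical region was the peak of smallest p of its gene in 43.6% (control) and 51.3% (knockout), beside 40.4% and 41.7% for other overlapping peaks.

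An identical region did not mean that the whole transcript matched. In 358 genes (28.7%) it was the sole peak in either list, and in 381 every peak was identical, 23 of these with 2 or more peaks. The other genes held 1591 further control peaks, of which 20.7% had no overlap, and 1612 further knockout peaks, of which 21.5% had none; over all peaks that were not identical these shares were 25.6% and 26.1%. Of the control peaks with q at or under 1e-10 in these genes, 68 of 863 (7.88%), in 61 genes, had no overlap in the knockout, where 9.78% of such peaks in other genes had none. Of the knockout peaks of that strength, 20 of 814 (2.46%) had no overlap in the control, against 4.73% in other genes. Lmo7, beside its identical regions, had a control peak of fold 4.94 (log10 q -197) with no knockout peak over it. In the other direction Myl2, the ventricular myosin light chain, had a knockout peak of fold 1.90 (log10 q -176), and Col1a2 one of fold 18.8 (log10 q -23.7).

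The regions with the largest folds in both lists, given q at or under 1e-10 in both, were in Purg, Cdc73, Ptges3l, Hyou1, Myc, Cd63, Adam10 and Spats2. Purg, a purine-rich element binding protein, had 65.8 (control) and 78.8 (knockout). Cdc73, of the PAF1 transcription complex, had 58.5 and 63.8. Hyou1, a chaperone of the endoplasmic reticulum, had 46.5 and 49.7, and Cd63, a tetraspanin of late endosomes, had 45.7 and 42.2. At these 4 regions both folds were within 1.25 times of each other, which a choice by the smaller of the 2 folds favours. Adam10, a membrane protease, had 36.9 and 74.1, and Spats2 had 67.4 and 36.8.

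At the low end of the quotient among regions with q at or under 1e-10 in both lists, Camsap2, which binds the minus ends of microtubules, had a control fold of 30.5 and a knockout fold of 3.72 at chr1:136198257-136199269. This was a log2 quotient of -3.04, with log10 q of -63.2 and -11.7. Mafk, a small MAF factor, had 56.1 and 11.9, although its q was smaller in the knockout (log10 q of -30.6 and -56.0). Prelp, a leucine-rich matrix protein, had 22.5 and 5.06, Csnk1d, a casein kinase, had 69.0 and 17.6, and Cox6a1, a subunit of complex IV, had 27.3 and 7.45. Gm17108, Mosmo, Itprip, Mtarc2 and Fry completed the 10 lowest at that limit of q, with log2 quotients from -2.18 to -1.85. Gm17108 overlapped an identical region of Nsun2, named after its values were seen, on the other strand.

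At the high end under the same limit, Ccdc102a had 5.81 (control) and 66.6 (knockout) at chr8:95629497-95629706, a log2 quotient of 3.52, with log10 q of -13.8 and -21.7. Zfp366 had 16.6 and 184, the largest knockout fold of all identical regions. Tpm4, a tropomyosin found mostly outside the sarcomere, had 5.24 and 45.0 with log10 q of -136 and -320. Tfeb, the regulator of lysosomal genes, had 12.7 and 115, Arf3, a small GTPase of the Golgi, had 10.9 and 102, and Xylt2, which starts proteoglycan chains, had 9.46 and 96.6. Naa50, Gm9887, Mrpl2 and Cirbp completed the 10 highest at that limit, with log2 quotients from 2.66 to 3.03. At all 10 the knockout q was the smaller. Among the 10 lowest, it was smaller too at Prelp, Mafk, Csnk1d, Cox6a1, Gm17108 and Mosmo. There it was equal at Mtarc2 and larger at Camsap2, Fry and Itprip, so q did not follow the direction of the quotient.

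Among the widest identical regions were Rrbp1 with 2370 exonic bases, Gas1 with 2004, Ier5 with 1966 and Rhob with 1903. Rhob, a small GTPase with a single exon, had a control fold of 13.4 and a knockout fold of 13.5. Rrbp1, a ribosome-binding protein of the endoplasmic reticulum, had 33.9 and 30. Gas1, a membrane protein of hedgehog signalling, had 12.5 and 54.9, and a second identical region inside it had 12.6 and 66.3. After Tnnt2, the regions of most blocks were in Dctn1 and in a gene without a symbol on an unplaced sequence, with 7 each, and in Nudc, Etfbl and Etfb, with 6; the regions of Etfbl and Etfb overlapped, and Etfb was named after its values were seen.

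The regions of smallest p in both lists came from Atp2a2, Tnnt2, Gm9800, H19, Des, Ybx1, Tcap and Rhob. Ybx1, a cold shock RNA-binding protein, had folds of 22.5 and 15.5 with log10 p of -1250 and -2180. Gm9800 had 8.54 and 27.2 at log10 p of -1650 and -1820. Of the 8, Ybx1 was the one with the lower knockout fold.

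Overlaps on the genome limit how many of the regions are separate. Among the 1330, 9 pairs overlapped on the same strand and 28 on opposite strands, which involved 71 regions. Jund and the 2 regions of Gm11175 on the other strand covered the same place, with folds of 3.07 and 2.85, and of 7.75 and 3.41, for Gm11175. A peak on the opposite strand overlapped 11.3% of identical regions and 7.70% of the other overlapping control peaks. The labels do not state whether the counting used strand, so genes on opposite strands cannot be told apart at these places. Over the autosomes and X the identical share of control peaks ran from 4.44% on chromosome 16 to 7.99% on chromosome 3, and none of the 4 control peaks on Y or the 3 on the mitochondrial genome was identical.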

How the data were processed

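Hearts of control and Wtap knockout mice were profiled by MeRIP-seq, with 1 IP and 1 input library per genotype, grouped by the genotype and antibody labels. Per the labels' design text, the authors called peaks with exomePeak 2.16.0 at q of 0.05 in each IP against its input; the result was deposited as 1 list of peaks for each genotype. Further tools in the submitters' processing notes, without roles, are HOMER 4.9.1, BWA 0.7.12 and fastp 0.19.11, with build GRCm39. The deposited fold is the authors' linear IP to input ratio. Each peak's p-value stands in the deposited score column, and the authors' log10 p and log10 q were read as a score because they reach minus infinity (log10 q of 34 control and 55 knockout values of identical regions). The lists hold no read counts, so depth was unknown.

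Identical regions were found by equality of all coordinate, block and gene columns; starts are given counted from 1. Overlap meant 1 shared exonic base or more, on 1 strand. Intervals are at 95%, exact (Clopper-Pearson) for shares and by order statistics for medians, and take peaks as independent. Matching was tested on simulated lists. Tools were Python 3.11.15, pandas 2.3.3, numpy 2.4.6, scipy 1.17.1 and matplotlib 3.10.9. Gene types and miRNA sequences came from RefSeq (GRCm38.p6); 1257 of the 1330 regions matched by symbol.

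Regions and the 30 gene lists were chosen with earlier results of these data known. Named regions were those of Wtap, m6A genes and selected heart genes; with q at or under 1e-10 in both lists, the 10 highest and 10 lowest quotients and the 8 with the largest smaller fold; the 8 smallest p in both lists; the 8 genes with most identical regions; the 5 widest and 5 with most blocks; and up to 3 genes per list. Any gene outside this rule is marked in the text as picked afterwards. Alternatives were stricter q or fold, edges within 30 bases, 1 peak per gene, 1-block peaks, protein-coding genes, no overlap on the other strand and no gene name. Transcript regions and motifs of the peaks need the GRCm39 genome and were not analysed here. A few genes that the rule took are left out of the text.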

Additional observations from a re-analysis of the deposited data

How the results depend on the processing

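No paired analysis was possible because each genotype had 1 IP and 1 input library, and for the same reason no replicate could be left out. The median log2 quotient, the only compared value with a sign, stayed positive under the 9 alternatives. The counts, shares and widths have no direction to turn. With q at or under 1e-05 in both lists, the identical share was 7.84% of control and 8.12% of knockout peaks and the median width 301 bases. With q at or under 1e-10 it was 8.54% and 9.31%, with 851 regions, a width of 360, and 54 regions lower and 110 higher in the knockout by 2 times or more. A fold of at least 4 in both lists gave a width of 310. Edges within 30 bases gave 4810 regions, 23.2% and 22.7%, a median log2 quotient of 0.12, and 481 lower and 713 higher. With 1 peak per gene the shares were 11.6% and 11.4%. Restricted to 1-block peaks there were 791 regions, 4.83% and 4.87%, with 108 higher by 2 times or more. Dropping the gene name from the rule left 1330 regions. Most alternatives compare fewer or other peaks by construction; what else moved these values was not tested. The unknown depth limits every fold and q, since a deeper library gives smaller q at the same fold.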
